A study of Zea mays with 24 samples.

Results

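AW461127, an expressed sequence tag for nitrate reductase, and TC254853, a consensus of maize tags similar to ammonium transporter 1-1, were each represented by 1 probe of 60 bases, so that 2 of the 7900 probes with a value, out of 21939 on the array, are described here. They were chosen because their ratios had been seen to stand out: AW461127 in A619 juvenile leaf, and TC254853 in 1.5 mm anthers of both lines and in A619 juvenile leaf. These ratios are therefore given as descriptions, with no test, and the remaining 12 ratios of a line over W23 were tested. The probe of AW461127 lies at bases 257 to 316 of its tag and that of TC254853 at bases 882 to 941 of its consensus, both in the forward direction. The platform's gene table pairs the first with the gene NNR1, whose other names include NR1. It lists no gene for the second, whose name rests on sequence similarity. Nitrate reductase belongs to a small gene family in maize, and hybridization of RNA from related genes to either probe was not tested. The paper cautions that inbred lines are highly polymorphic, though it holds that its probes likely hybridize well across lines. Whether either probe matches the sequence of A619 or ND101 was not tested.

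Nitrate reductase reduces nitrate to nitrite in the cytosol with electrons from NADH, and nitrite is then reduced to ammonium in plastids. This reduction is the entry of nitrate into amino acids, and in leaves its transcript is known to be induced by nitrate and to follow light and the time of day. Ammonium transporters of the AMT1 family carry ammonium across the plasma membrane, for uptake by roots and for recovery of ammonium within shoots, where glutamine synthetase takes it up into glutamine.

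The study set the inbred A619 and the F1 hybrid ND101/W23, made with W23 pollen on ND101, against the inbred W23 on arrays of 2 colours. All 3 lines were grown in the same field. Samples were taken of anthers of upper florets at lengths of 1 mm and 1.5 mm, of juvenile leaves and of mature pollen. There were 12 samples of a line and 24 arrays, 3 for each of the 8 pairings of line and tissue, and each W23 sample served on an array with A619 and on another with the hybrid. W23 itself carries the bz2 mutation, with which anthocyanin does not accumulate, and it is also a parent of the hybrid, which therefore has a W23 allele at every locus.

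Values are log2 ratios of the line over W23, as normalized by the authors, so that -1 means that the line had 1 part of signal for every 2 in W23. The direction of the ratios rests on the hybrid, because the labels and the study's design give opposite dyes for each array: of 36 hybrid ratios listed by the study at a size of 0.5 or more, 36 had the same sign in the deposited values. A619 was read the same way because its arrays deviate together with those of the hybrid that share a W23 sample. A ratio compares the lines within 1 tissue and gives no level, and tissues could not be checked by their own markers. Between 7884 and 7900 probes had a value on each array, and the array medians lay between -0.04 and 0.04. Both probes are in the study's list of transcripts detected only in juvenile leaf, in all 3 lines, of which 863 had a value. Their signal over background in anthers and pollen is not known from the ratios.

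The ratios of both probes departed from 0 in A619 juvenile leaf, in opposite directions, and those of TC254853 also in 1.5 mm anthers. In juvenile leaf the nitrate reductase probe gave a far lower signal in A619 than in W23. Its mean ratio stayed within 0.5 of 0 in each of the other 7 comparisons. Among these it was lowest in hybrid anthers, at -0.46 (1 mm) and -0.49 (1.5 mm). The probe is listed as detected only in juvenile leaf, so its anther and pollen ratios cannot show whether the difference is confined to leaf. The ammonium transporter probe had ratios below 0 in 1.5 mm anthers of both A619 and the hybrid, and above 0 in juvenile leaf of A619. Both lines were set against the same W23 samples, so their 1.5 mm ratios are not independent of each other. This probe, too, is not shown to be above background in anthers. In bulk samples, fewer cells that express a gene and less RNA per cell cannot be told apart.

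**Figure D1:**
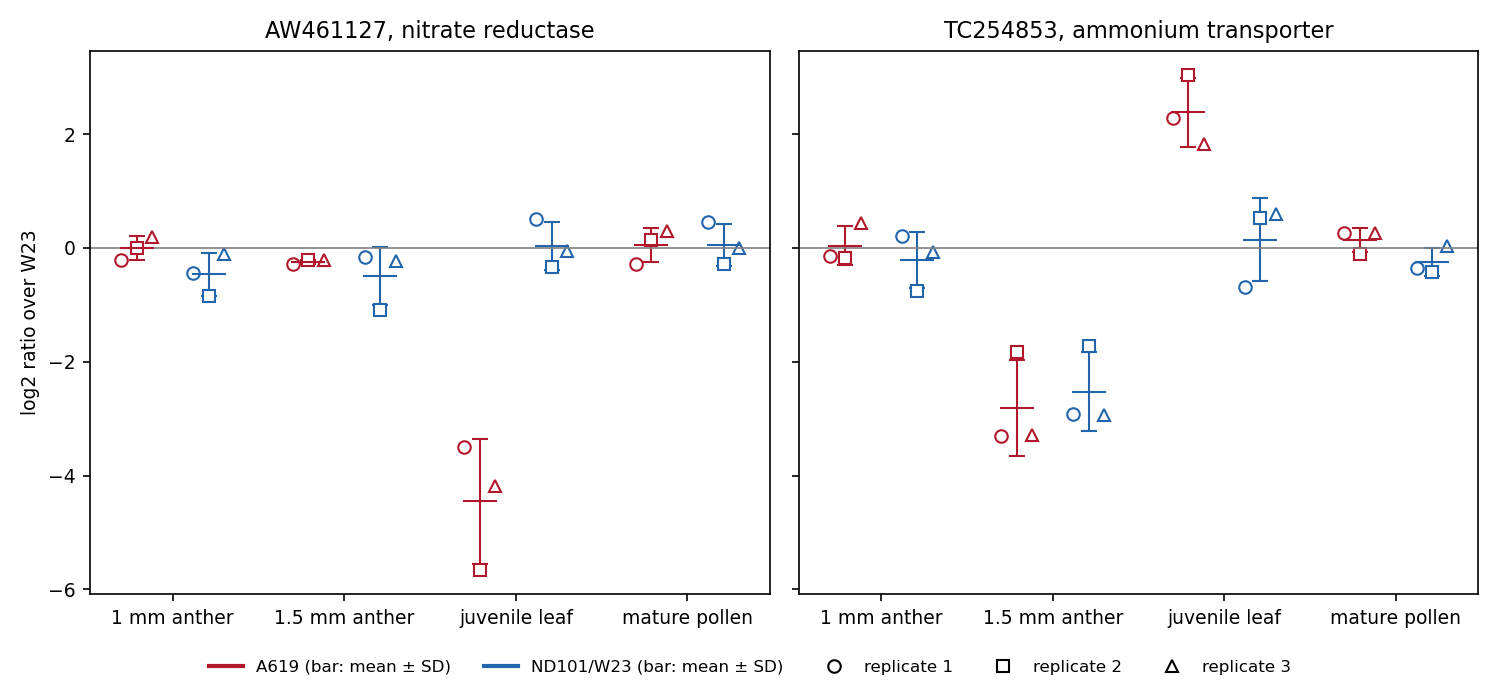
Log2 ratio over W23 (y axis) in each tissue (x axis) for AW461127 (left) and TC254853 (right). Open symbols are single arrays by replicate number, horizontal bars the mean of 3 arrays and vertical bars the SD, in red for A619 and blue for ND101/W23. AW461127 was between -3.50 and -5.65 in A619 juvenile leaf and between -1.09 and 0.50 elsewhere, and TC254853 lies below -1.7 on all 6 arrays of 1.5 mm anthers and between 1.83 and 3.03 in A619 juvenile leaf.

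In juvenile leaf of A619, the log2 ratio of AW461127 was -3.50, -5.65 and -4.19 on replicates 1, 2 and 3. Every array lay below 0, and the mean of -4.45 ± 1.10 (SD, n = 3) corresponds to a signal 21.8-fold lower than in W23. It was the 27th lowest of 7885 probes in this comparison and the 5th lowest of the 863 leaf-specific probes. The spread between the 3 arrays was also wide: 96.2% of the probes had a smaller SD, against a median SD of 0.28. In A619 leaf, 41.9% of the 7900 probes were called, that is, they had a Benjamini-Hochberg adjusted p under 0.05 in limma and the same sign on all 3 arrays. With all arrays scaled to the same spread, the mean became -2.73. Of the arrays, replicate 3 carries the dyes the other way round from replicates 1 and 2, and its ratio of -4.19 lay between theirs.

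In juvenile leaf of the hybrid, the ratio of AW461127 was 0.50, -0.33 and -0.05. These values lie on both sides of 0, and the mean of 0.04 ± 0.42 did not pass the test (limma, adjusted p = 0.955, 95% interval -0.857 to 0.937), while 10.3% of all probes were called (810, or 1910 with the replicate number as a block). The interval leaves out a change of the size seen in A619. Replicates of A619 and of the hybrid with the same number share a W23 sample, and the difference between them, A619 minus hybrid, was -4.0, -5.32 and -4.14. The ranges of the 2 lines were thus apart in leaf, by a mean of -4.49 (SD 0.725), and no test is given because the choice of the transcript used this contrast. In this contrast 21.0% of all probes were called (1658, or 2615 with the block), and how many had ranges apart was not counted.

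In 1 mm anthers of A619, AW461127 had ratios of -0.22, 0.00 and 0.20, centred on 0 (mean -0.01 ± 0.21, adjusted p = 0.996, in a comparison with 4.14% of probes called). In 1 mm anthers of the hybrid the ratios were -0.44, -0.85 and -0.10. All 3 lay below 0, but the mean of -0.46 ± 0.38 did not pass the test over all probes (limma, adjusted p = 0.148), where 7.05% of probes were called (557, or 890 with the block). Replicate 2 was the lowest, and without it the mean was -0.27.

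In 1.5 mm anthers of A619 the 3 ratios of AW461127 were nearly equal at -0.28, -0.22 and -0.22 (mean -0.24 ± 0.03, adjusted p = 0.424), in a comparison in which 20.3% of probes were called. In the hybrid they were -0.16, -1.09 and -0.23. Replicate 2 was again the lowest, without which the mean was -0.19, and the mean of -0.49 ± 0.52 did not pass the test (limma, adjusted p = 0.255), with 3.96% of probes called (313, or 539 with the block). The nitrate reductase transcript was thus below 0 on all 6 hybrid anther arrays, with neither stage called.

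The difference between the lines in AW461127 did not pass the test outside leaf. A619 minus hybrid was 0.46 in 1 mm anthers (limma, 95% interval -0.106 to 1.02, adjusted p = 0.472, or 0.348 with the block), where 0.734% of probes were called (58, or 172 with the block). In 1.5 mm anthers it was 0.25 (-0.387 to 0.893, adjusted p = 0.639, or 0.512 with the block), where 3.84% were called (303, or 815 with the block). The ranges of the 2 lines overlapped in both stages. For the 3 shared W23 samples the difference was 0.22, 0.85 and 0.30 in 1 mm anthers, above 0 in each, and -0.12, 0.87 and 0.01 in 1.5 mm anthers.

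In mature pollen, AW461127 had ratios of -0.29, 0.14 and 0.29 in A619 and of 0.45, -0.29 and 0.00 in the hybrid. The means were 0.05 ± 0.30 (adjusted p = 0.974) and 0.05 ± 0.37 (adjusted p = 0.979), and both sets of arrays straddled 0. Few probes were called in pollen, 1.53% for A619 (121, or 184 with the block) and 0.937% for the hybrid (74, or 150 with the block). The difference between the lines was -0.01 (95% interval -0.614 to 0.60, adjusted p = 0.997, or 0.995 with the block), and limma called 0.00% of probes in it (682 at an unadjusted p under 0.05, and 1 with the block).

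For the ammonium transporter TC254853, both lines lay below W23 in 1.5 mm anthers. In A619 the ratios were -3.30, -1.83 and -3.29, with a mean of -2.81 ± 0.85. In the hybrid they were -2.91, -1.73 and -2.94, with a mean of -2.53 ± 0.69. No fold of levels is given, since the probe is not shown to be above background in anthers. All 6 arrays were low, and in each line the transcript held the 21st lowest mean (of 7876 probes in A619 and 7897 in the hybrid) and the 7th lowest among the leaf-specific probes. These ratios were not tested, and those of the 2 lines are not independent, since their arrays share the W23 samples.

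In both lines replicate 2 was the least low, by 0.98 above the mean in A619 and 0.80 in the hybrid, and these 2 arrays share a W23 sample. The difference between the lines was correspondingly steady, at -0.39, -0.10 and -0.35 (mean -0.28, SD 0.157), and their ranges overlapped. Its sign turned when the arrays were scaled to the same spread (0.26). Over the leaf-specific list the median ratio on these 6 arrays was between -0.01 and 0.07. In A619, 45 of its probes were called higher and 65 lower (12.75%, against 20.3% of all probes). In the hybrid, 5 were called higher and 21 lower (3.01%, against 3.96% of all probes). The 1 mm anther-specific list had medians of -0.50 to -0.385 on the 3 arrays of A619 and of -0.165 to 0.19 on those of the hybrid, and its part in the result was not tested.

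In 1 mm anthers, the earlier stage, TC254853 stood near W23. Its ratios were -0.14, -0.18 and 0.44 in A619 (mean 0.04 ± 0.35, adjusted p = 0.992) and 0.21, -0.76 and -0.08 in the hybrid (mean -0.21 ± 0.50, adjusted p = 0.557). Both sets straddled 0, and A619 minus hybrid was 0.25 (limma, 95% interval -0.449 to 0.949, adjusted p = 0.756, or 0.645 with the block). Of the 10 probes with a mean under -2 in 1.5 mm anthers of both lines, TC254853 was the only 1 with means within 0.5 of 0 in 1 mm anthers of both, and also the only 1 with a mean over 2 in A619 leaf. The 1.5 mm and leaf ratios were used in choosing it, so this count is a description. It also depends on the cut-offs: TC262255, the closest probe in pattern, had means of -1.55 and -1.60 in 1.5 mm anthers and 1.98 in A619 leaf. The lowest 1 mm ratio of TC254853 and that of AW461127 both fell on replicate 2 of the hybrid. On that array the pollen-specific list had a median of 0.44, against 0.10 and 0.02 on the other hybrid arrays of the stage, and its part in these values was not tested.

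In juvenile leaf of A619, TC254853 was higher than in W23, with ratios of 2.29, 3.03 and 1.83. The mean of 2.38 ± 0.61 is a signal 5.22-fold higher than in W23. It was the 127th highest mean of 7885 probes and the 16th highest of the 863 leaf-specific probes. Scaling the arrays to the same spread gave 1.46. On replicate 3 of leaf, the array with the smallest ratio, the pollen-specific list had a median of -0.455, against -0.08 and -0.03 on the other arrays of A619, and its part in the value was not tested. Without that replicate the mean was 2.66.

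In juvenile leaf of the hybrid the ratios of TC254853 were -0.69, 0.53 and 0.60, with 1 array below 0. The mean of 0.15 ± 0.73 did not pass the test (adjusted p = 0.781, 95% interval -0.588 to 0.881), and 95.2% of probes had a smaller SD in this comparison. A619 minus hybrid was 2.98, 2.50 and 1.23 for the 3 shared W23 samples, with the ranges apart (mean 2.24, SD 0.904). It is given without a test, because the choice of the transcript used the A619 ratio. In this contrast 21.0% of all probes were called, and how many had ranges apart was not counted.

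In mature pollen, TC254853 had ratios of 0.26, -0.11 and 0.26 in A619 (mean 0.14 ± 0.21, adjusted p = 0.828) and of -0.35, -0.43 and 0.03 in the hybrid (mean -0.25 ± 0.25, adjusted p = 0.662). A619 minus hybrid was 0.61, 0.32 and 0.23, above 0 for each shared W23 sample, with a mean of 0.39 and overlapping ranges of the lines (limma, 95% interval -0.104 to 0.877, adjusted p = 0.668, or 0.409 with the block). No ratio of either transcript in pollen exceeded 0.45 in size.

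**Figure D2:**
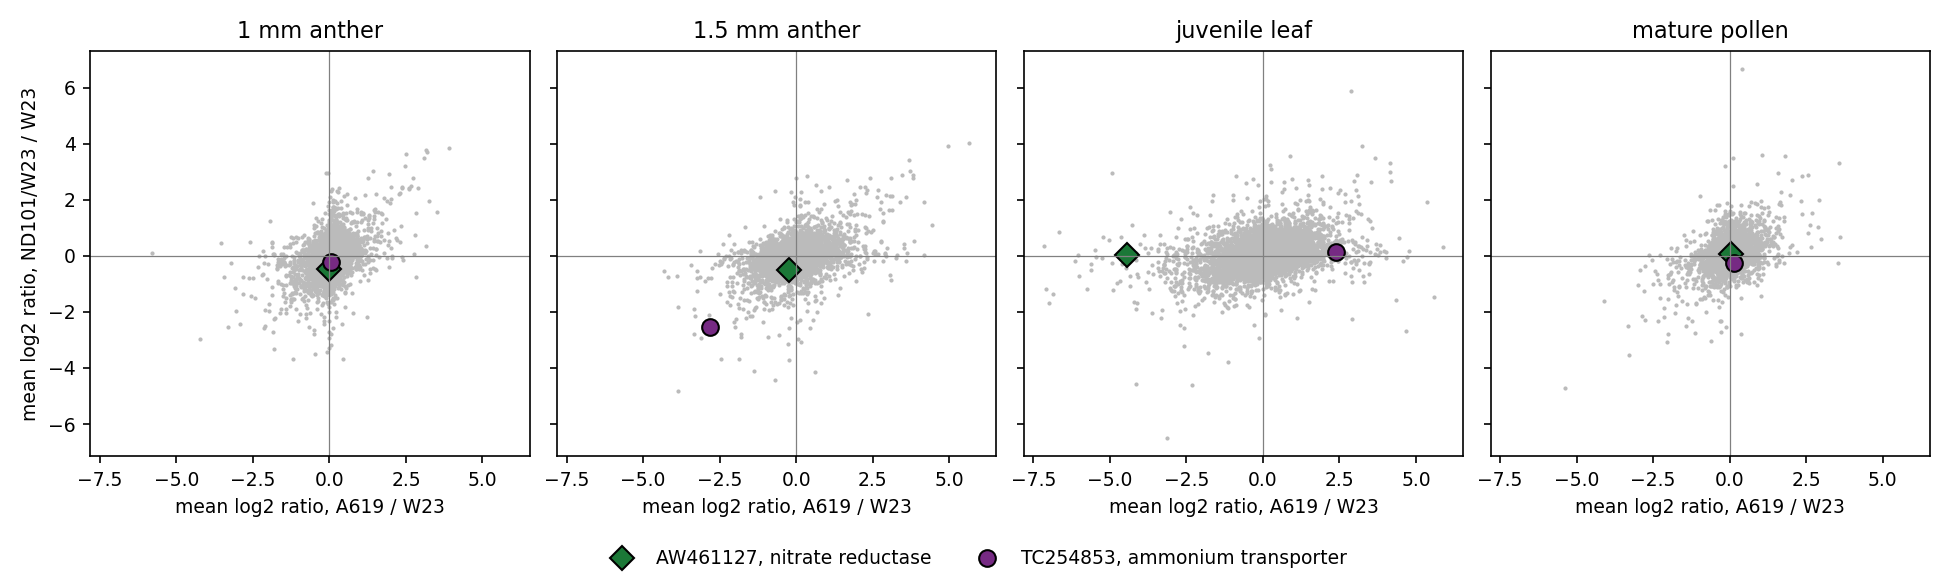
Mean log2 ratio over W23 of A619 (x axis) and ND101/W23 (y axis) in each tissue. Grey points are the 7817 probes with a value on all 24 arrays, and each mean is over 3 arrays. AW461127 (green diamond) lies at the far left only in juvenile leaf, near 0 for the hybrid, and TC254853 (purple circle) is low in both lines in 1.5 mm anthers and to the right in juvenile leaf.

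Set in order over the 8 comparisons, the mean ratio of AW461127 was lowest in A619 leaf (-4.45), and the next, hybrid 1.5 mm anthers (-0.49), lay apart from it in range. From there the means ran up to 0.05, and the ranges of neighbours overlapped or touched. For TC254853 the order began with 1.5 mm anthers of A619 (-2.81) and of the hybrid (-2.53), which overlapped. These were followed after a gap by 5 comparisons with means from -0.25 to 0.15 and overlapping ranges, and after another gap by A619 leaf (2.38).

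The contrast between leaf and the mean of both anther stages was taken in a fit of all 24 arrays. For AW461127 it was -4.32 in A619, a description (40.4% of probes called in that contrast), and 0.52 in the hybrid, which did not pass the test (95% interval -0.184 to 1.22, adjusted p = 0.297, with 15.4% of probes called, that is 1218, or 2263 with the block). For TC254853 it was 3.77 in A619 and 1.52 in the hybrid, both descriptions. In the hybrid the transporter had a mean of 0.15 in leaf and of -2.53 in 1.5 mm anthers.

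Of the 18 ratios and differences that were tested for both transcripts, limma called 0, and 2 had an unadjusted p under 0.05, those of AW461127 in hybrid 1 mm and 1.5 mm anthers. Rank Products, the test in the study's methods, also called 0 of the 12 line ratios among them. None of the 18 was called under any of the alternatives. The ratios that stood out had been left out of these tests. Most of the line ratios that remained are from anthers or pollen, where the study does not list either probe as detected. The absence of calls therefore cannot show that levels were alike in those tissues.

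Among all 7817 probes, 41 had a mean under -4 in A619 leaf. AW461127 was among 19 of these with the hybrid leaf within 0.5 of 0, and among 5 for which every other mean was also within 0.5 of 0. Only 1 of the 41 was under -2 in hybrid leaf. The A619 leaf ratio of AW461127 was used in choosing it, so its place in these counts is a description. Over the leaf-specific list as a whole, 94 probes were called higher and 184 lower in A619 leaf. In either direction this is 32.2% of 863, a smaller share than the 41.9% called over all probes. For the lower direction alone the share was larger on the list, 184 of 863, beside 1425 of 7900 (18.0%) over all probes. The median of the list was -0.19, against -0.03 over all probes.

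To find transcripts with the most similar pattern, the root mean square difference of the 24 log2 ratios was taken between each member and every other probe. The median over 7816 probes was 1.70 for AW461127 and 1.72 for TC254853, and a probe at 0 on every array would lie at 1.65 from each. The 2 transcripts lay at 2.78 from each other, farther apart than most pairs (rank 7714 from AW461127 and 7735 from TC254853).

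The 5 closest named probes to AW461127 lay at 0.697 to 0.886, at ranks 16 to 45 among all probes, with means between -4.07 and -3.05 in A619 leaf. The closest, TC264135, similar to cryptochrome dash, a blue-light receptor relative, had ratios of -2.64, -3.78 and -2.95 there. AW400247, weakly similar to an early embryogenesis protein, had a mean of -3.59, and AI947559.1, similar to sialin, of -3.05. TC268077, the small subunit of ribulose bisphosphate carboxylase, which fixes carbon dioxide in photosynthesis, had -4.20, -3.33 and -2.18 (mean -3.24). In pollen TC264135 and AW400247 stood at 0.54 and 0.77 in A619, above AW461127 at 0.05. TC276164, weakly similar to pectin methylesterase, which modifies cell wall pectin, had a mean of -4.07. It is on the study's pollen-specific list, and its hybrid 1 mm ratios ranged from -0.46 to 2.52. The probes ranked ahead of them had no product name that could be used, the closest at 0.414.

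For TC254853, the 3 closest of all 7816 probes were named ones from the leaf-specific list, at 0.811, 0.839 and 0.877. TC262255, similar to an AAA-type ATPase, had ratios of -2.78, -0.39 and -1.49 in A619 1.5 mm anthers and of -1.42, -1.01 and -2.36 in the hybrid. TC265625, annotated by a short match to a protamine, had -2.09, -0.31 and -1.56 in A619 and -2.29, -1.12 and -2.06 in the hybrid. The third, similar to a rice protein of no stated function, had -2.71, -1.34 and -2.26 in A619 and -1.26, -0.56 and -2.63 in the hybrid. Like the transporter, each was least low on replicate 2 in both lines, the arrays that share a W23 sample. In A619 leaf their means were 1.98, 1.67 and 2.12. They differed from the transporter in 1 mm anthers, where the third was at -1.43 in A619 and TC265625 at -0.97 in the hybrid. The next named probes, TC260870, the calcium-dependent protein kinase ZmCPK11, and TC270659, weakly similar to a transmembrane 9 superfamily protein, followed at 1.229 and 1.233 and are on the 1 mm anther-specific list. All were picked for likeness on these arrays, so that the shared pattern is a description.

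**Figure D3:**
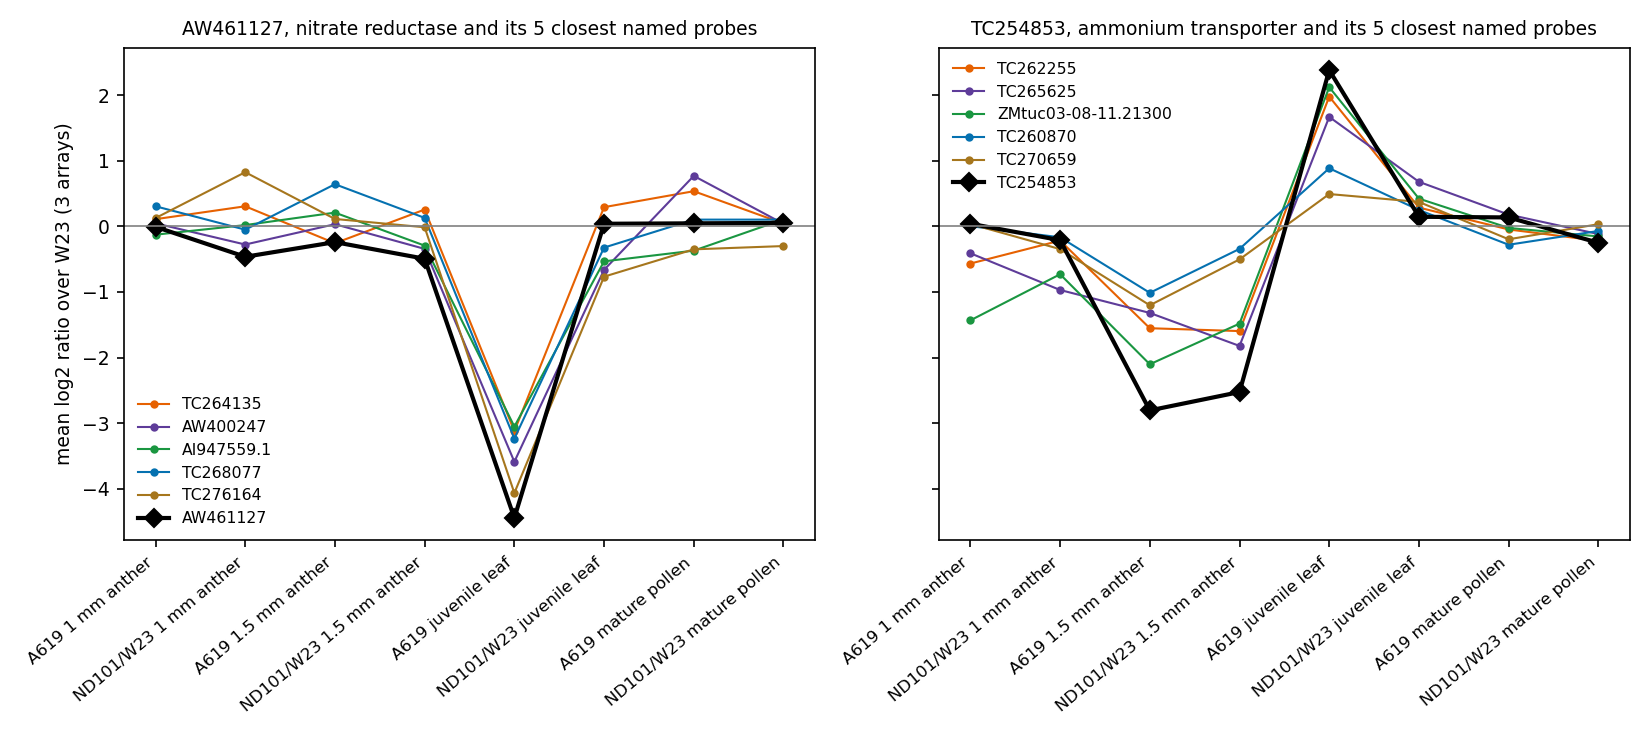
Mean log2 ratio over W23 (y axis, 3 arrays each) in the 8 comparisons (x axis) of AW461127 (left) and TC254853 (right), in black, with the 5 named probes of smallest root mean square difference in colour. The left profiles dip in A619 juvenile leaf to between -3.05 and -4.45, and the right ones fall in 1.5 mm anthers and peak in A619 juvenile leaf, TC254853 at 2.38.

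Other transcripts of nitrogen use were taken from a list of 17, of which 15 had a value. Of these, 8 probes run forward along their consensus and 7 in reverse. A reverse probe may read the antisense strand, and TC260059 is such an antisense probe in the study's tables. In A619 leaf 5 of the 15 were called lower and 0 higher, with a median of -0.42, beside 18.0% of all probes called lower. All 5 are on the leaf-specific list, where 184 of 863 were called lower and the median was -0.19. TC270968, TC263733 and TC278879 are on the pollen-specific list and TC268068 on the 1.5 mm anther-specific list, so their signal over background in leaf is not known. Of the 5, 4 were reverse probes (of 7, median -0.43) and 1 was a forward probe (of 8, median -0.18), so that most of these calls may concern the antisense strand. The count was 2 without replicate 1, 2 without replicate 3 and 8 with the replicate number as a block, and Rank Products called 0. None of the 15 was as far from W23 as either member in A619 leaf, where their means ran from -1.27 to 0.39.

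Among transcripts for the release of nitrogen, the reverse probe TC274941, similar to asparaginase, which frees ammonium from asparagine, was called lower in leaf of both lines. Its ratios were -1.49, -1.40 and -0.93 in A619 (mean -1.27, SE 0.17, adjusted p = 0.00117) and -0.99, -0.44 and -0.92 in the hybrid (mean -0.78, SE 0.17, adjusted p = 0.0328), where 4.41% of all probes were called lower. Leaving out replicate 1, 2 or 3 removed the call in the hybrid (adjusted p of 0.293, 0.0731 and 0.0877). The reverse probe TC262970, similar to urease, which releases ammonium from urea, was at -1.57, -0.28 and -1.10 in A619 leaf (mean -0.98, adjusted p = 0.0281), and the glycine decarboxylase P probe TC260059, of a photorespiration enzyme that releases ammonium, was at -0.42 (adjusted p = 0.0266). The call of TC262970 was lost without replicate 1 (adjusted p = 0.21) or 3 (0.109), and that of TC260059 without replicate 1 (0.218), 2 (0.0628) or 3 (0.088). TC272278, similar to an amidohydrolase, was not called in any comparison.

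For assimilation and electron supply, the reverse ferredoxin probe TC259449 was lower in A619 leaf, at -0.72, -1.11 and -0.70 (mean -0.84, adjusted p = 0.00193). Ferredoxin supplies electrons to nitrite reductase and to photosynthetic metabolism. TC268068, similar to a glutamate-ammonia ligase-like nodulin, had means between -0.13 and 0.19 in all 8 comparisons and was called in none. Its name is that of a relative of glutamine synthetase, the enzyme that takes up ammonium.

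For amino acids made from glutamate, TC260797, the proline synthesis enzyme P5CS, was called lower in A619 leaf (mean -0.73, adjusted p = 0.0341). Without replicate 1 its mean was -0.44 and the call was lost (0.235), as it was without replicate 3 (0.0666) and with arrays scaled to the same spread (0.0807). TC273183, similar to acetylornithine deacetylase of arginine synthesis, was called higher in A619 1.5 mm anthers (mean 0.51, adjusted p = 0.0365). TC278879, similar to ornithine carbamoyltransferase, was not called, with a highest mean of 1.41. Of the aminotransferases, the reverse probe TC258397, a GABA transaminase, was called higher in A619 1.5 mm anthers at 0.54 (adjusted p = 0.0496), and TC269747, an alanine aminotransferase, was called in none. These 2 in A619 1.5 mm anthers stand beside 8.65% of all probes called higher there. The count was 0 without replicate 1 and 0 without replicate 3. TC273183 and TC258397 are on the leaf-specific list, so their signal over background in anthers is not known.

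The 4 measured transporters of the list, for amino acids (TC255836), allantoin (TC273868), proline (TC270968) and an amino acid channel (TC263733), were called in no comparison by limma. Their means ranged from -0.59 to 0.72 (both TC263733, in pollen of the hybrid and of A619). In 1.5 mm anthers, where the ammonium transporter stood at -2.81 and -2.53, the lowest mean of these 4 was -0.36 (TC255836, in A619). TC255836 and TC273868 are on the leaf-specific list and TC270968 and TC263733 on the pollen-specific list. Their signal over background in 1.5 mm anthers is therefore not known, and these ratios cannot show whether their levels differ there.

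**Figure D4:**
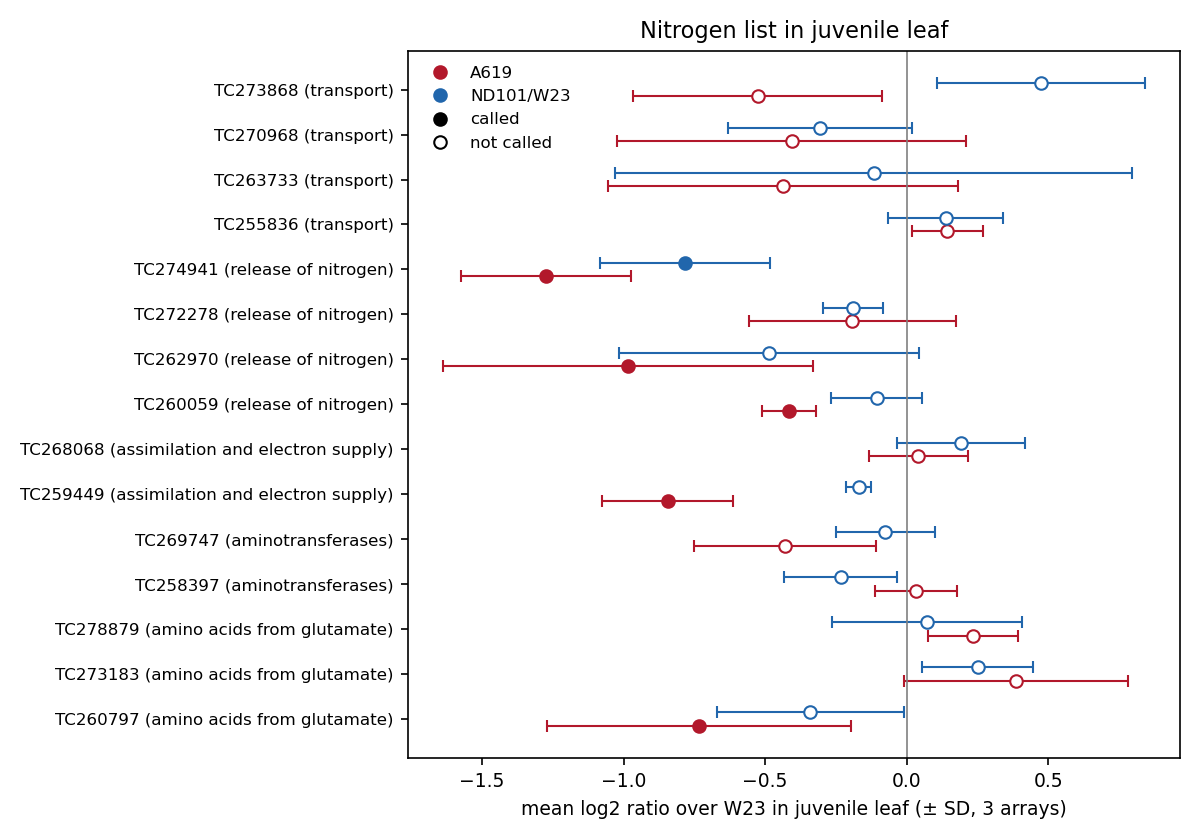
Mean log2 ratio over W23 in juvenile leaf (x axis, bars SD of 3 arrays) of the 15 measured probes of the nitrogen list, grouped by role (y axis), for A619 (red) and ND101/W23 (blue), with filled symbols for called probes. The 5 filled red symbols and the 1 filled blue symbol lie left of 0, the lowest at -1.27.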

How the data were processed

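The authors hybridized amplified RNA of 2 samples to Agilent arrays of 60-base probes, read the images with Feature Extraction, removed saturated spots and probes below thresholds set on negative controls, used a MadScan plug-in of the BASE system to apply a rank-invariant and then a loess normalization within arrays, and gave the triplicates a common variance. The deposited values are the resulting log2 ratios, used here as given. No genome build is named, so no coordinates are given, and probe sequences, signal intensities and detection calls are not analysed here.

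Probe numbers of the study's tables were joined to the values at an offset of 3, at which 22 of 23 tag accessions known from both sources matched. Replicates are separate biological samples. limma 3.58.1 in R 4.3.3 was fitted per tissue on 6 arrays with a mean per line, and over all 24 arrays for leaf minus anthers. These fits, and the intervals printed, do not use the sharing of W23 samples between arrays, which the replicate block takes in. P-values were adjusted over all probes by Benjamini-Hochberg and called under 0.05. For line ratios the 3 arrays also had to share a sign. Numbers pair the samples of both lines through the shared W23 sample: deviations from the group means correlated at 0.198 to 0.644 for 12 pairs of the same number and at -0.571 to 0.227 for 24 pairs of different numbers. Dye-swapped arrays had been turned already, since pairs of arrays with opposite dyes correlated at 0.108 to 0.79 (16 pairs) and pairs with the same dyes at 0.224 to 0.891 (8 pairs).

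The members, lists and tests were chosen with earlier results of these data known. Named were both members, the called probes of the nitrogen list with each member of its role groups, and the 5 closest named probes to each member. On simulated ratios for A619, limma recovered 80 to 87 of 100 probes shifted by 1 on the log2 scale and 98 to 100 of 100 shifted by 2, with 8 to 14 false calls among 7900 probes, and Rank Products 23 to 39 and 99 to 100 of 100, with 6 to 10. Alternatives were centring, scaling, other arrays in the fit, a dye coefficient, the replicate block, complete probes, a robust prior, Rank Products, no sign rule and leaving out each replicate. Descriptions and plots used Python 3.11.15, pandas 2.3.3 and matplotlib 3.10.9.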

Additional observations from a re-analysis of the deposited data

Results flagged for a closer look

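In A619, the ammonium transporter TC254853 was on opposite sides of W23 in 2 tissues, with all 3 leaf arrays above 0 and all 3 arrays of 1.5 mm anthers below, a difference between the means of 5.19. The difference was not tested, since both ratios were used in choosing the transcript.

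In A619, 3 probes of the nitrogen list lay above 0 on all arrays of 1.5 mm anthers and below 0 on all arrays of leaf. The leaf minus anther difference was -1.21 for the ferredoxin probe TC259449, -1.12 for the urease probe TC262970 and -1.24 for the P5CS probe TC260797. TC262970 was also below 0 on all arrays of A619 1 mm anthers, 0.30 under the 1.5 mm anthers. In the hybrid the GABA transaminase probe TC258397 was above 0 on all arrays of 1 mm anthers and below on all arrays of leaf, a difference of -0.87. None of these differences between tissues was tested, and how many of all probes share these signs was not counted. In A619 leaf minus the mean of both anther stages, 40.4% of all probes were called. The probes named here are on the leaf-specific list, so their signal over background in anthers is not known. TC259449, TC262970 and TC258397 are reverse probes, which may read the antisense strand.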

How the results depend on the processing

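Of the 300 values of both members under alternative settings, 13 turned their sign and 287 kept it, 8 of these with a change in size larger than the spread between replicates, and no tested value was called under any. Scaling all arrays to the same spread reduced the values of A619 leaf: for AW461127 to -2.73, to -2.77 against the hybrid and to -2.62 against anthers, and for TC254853 to 1.46, 1.32 and 2.70. It turned the difference of TC254853 between the lines in 1.5 mm anthers to 0.26. The scaling divides by the spread of an array, which was wider in A619 leaf. A dye coefficient turned AW461127 in A619 1 mm anthers to 0.06.

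Leaving out 1 replicate at a time turned the sign of values near 0. For AW461127 they ran from -0.11 to 0.10 in A619 1 mm anthers, from -0.19 to 0.22 in hybrid leaf, from -0.07 to 0.22 in A619 pollen and from -0.14 to 0.22 in hybrid pollen. In hybrid anthers AW461127 kept its sign, from -0.64 to -0.27 at 1 mm and from -0.66 to -0.19 at 1.5 mm. The difference of AW461127 between the lines ran from -0.06 to 0.44 in 1.5 mm anthers and from -0.22 to 0.36 in pollen, and its A619 leaf minus anther value from -4.86 to -3.71. For TC254853 they ran from -0.16 to 0.15 in A619 1 mm anthers, from -0.42 to 0.06 in hybrid 1 mm anthers and from -0.08 to 0.56 in hybrid leaf.

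The replicate block changed no call of a member. With it, 8 nitrogen probes in place of 5 were called lower in A619 leaf, and 2 in place of 0 outside the comparisons with calls. The 5 became 2 with scaled arrays, 2 with only the arrays of the comparison, 0 with Rank Products and 2 to 5 without a replicate. The 2 called higher in A619 1.5 mm anthers became 1 with centred arrays, only the arrays of the comparison, a dye coefficient or a robust prior, 0 with scaled arrays or Rank Products and 0 to 2 without a replicate. The 1 in hybrid leaf became 0 with Rank Products and 0 without any replicate. Elsewhere 1 was called with all 24 arrays in the fit, 1 with a dye coefficient and 0 to 1 without a replicate. The cause was not tested.

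Probes called in all moved more, for A619 leaf from 3312 to between 299 (Rank Products) and 3966 (replicate block), for hybrid leaf from 810 to between 0 (without replicate 1) and 1910 (block), for A619 1.5 mm anthers from 1603 to between 191 (without replicate 3) and 2270 (block), for hybrid 1.5 mm anthers from 313 to between 0 (without replicate 3) and 923 (without replicate 2), and for 1 mm anthers from 327 to between 44 and 706 in A619 and from 557 to between 0 and 890 in the hybrid. In pollen they moved from 121 to between 0 and 373 and from 74 to between 0 and 326, for the line differences from 58, 303, 1658 and 0 to at most 208, 815, 2615 and 117 and at least 0, 0, 8 and 0, and for leaf minus anthers from 3188 to between 1512 and 4008 and from 1218 to between 259 and 2263.

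With 3 arrays for a comparison the intervals are wide, and the signal of both probes over background in anthers and pollen is not known.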
